A study of Mus musculus with 6 samples.

Results

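Stra8, Meioc, Rec8 and Ythdc2 are listed here as genes of meiotic entry. Their levels were examined in mouse embryonic stem cells in which Pcgf6 could be knocked down. They were chosen by name as regulators of meiotic entry, with earlier results of these arrays known. They make up 4 of the 19938 genes read by the arrays. Each had 1 probe set (the group of probes that reads a transcript) carrying its symbol alone. The cells were of the V6.5 embryonic stem cell line, carried a short hairpin RNA switched on by doxycycline (dox), and grew on a feeder layer of inactivated mouse embryo fibroblasts. Total RNA of 6 samples was hybridised to GeneChip Mouse Gene 1.0 ST arrays. The induced Pcgf6 hairpins were shRNA1 and shRNA2 with dox at 1 µg/ml (2 arrays), the uninduced Pcgf6 hairpins were the same lines without dox (2 arrays), and a scrambled hairpin was measured with dox (1 array) and without dox (1 array). The labels call the hairpins shRNA1, shRNA2 and Scrambled, and they give neither the length of dox treatment nor whether a line was a single clone. Values are log2 expression after the authors' RMA normalization, in which a difference of 1 is a 2-fold difference.

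Germ cells enter meiosis when the retinoic acid signal from surrounding tissue meets a competent germ-cell nucleus. Stra8 is a gene that retinoic acid switches on at that point, and its protein acts with MEIOSIN to turn on genes of meiotic prophase. MEIOC and the RNA helicase YTHDC2, with the RNA-binding protein RBM46, act on transcripts so that the cell leaves the mitotic programme. REC8 is the kleisin subunit of meiotic cohesin, which holds sister chromatids together and replaces the general kleisin RAD21. In embryonic stem cells many germ-line genes are kept silent by PRC1.6, the variant polycomb complex that contains PCGF6. Its DNA-binding subunits MGA and MAX recognise T-box and E-box sequences, and E2F6 recognises E2F sequences.

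The promoters of Meioc, Stra8 and Rec8 are shown for the sequences that these factors and the retinoic acid receptors recognise. Each sequence runs 5′ to 3′ on the + strand, from 250 bases before to 50 bases after the RefSeq start site in build GRCm38.p6. Capitals mark matches, on either strand, to the E-box CACGTG, the E2F sequence GCGGGAA, the T-box sequence AGGTGTG or the retinoid receptor sequence AGGTCA. No matches overlapped.
Meioc, chr11:102665335-102665634: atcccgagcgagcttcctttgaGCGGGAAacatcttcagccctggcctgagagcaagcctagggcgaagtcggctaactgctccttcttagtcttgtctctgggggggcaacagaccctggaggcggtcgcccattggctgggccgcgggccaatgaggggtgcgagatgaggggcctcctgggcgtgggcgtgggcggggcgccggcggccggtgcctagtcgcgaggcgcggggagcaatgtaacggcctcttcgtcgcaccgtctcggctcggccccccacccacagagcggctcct
Stra8, chr6:34920698-34920997: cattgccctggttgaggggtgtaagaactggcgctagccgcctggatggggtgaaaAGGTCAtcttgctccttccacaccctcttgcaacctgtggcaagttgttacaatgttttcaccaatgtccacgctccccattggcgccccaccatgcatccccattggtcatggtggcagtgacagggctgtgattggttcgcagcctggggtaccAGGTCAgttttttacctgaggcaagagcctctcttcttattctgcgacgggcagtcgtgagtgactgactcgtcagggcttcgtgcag
Rec8, chr14:55617916-55618215: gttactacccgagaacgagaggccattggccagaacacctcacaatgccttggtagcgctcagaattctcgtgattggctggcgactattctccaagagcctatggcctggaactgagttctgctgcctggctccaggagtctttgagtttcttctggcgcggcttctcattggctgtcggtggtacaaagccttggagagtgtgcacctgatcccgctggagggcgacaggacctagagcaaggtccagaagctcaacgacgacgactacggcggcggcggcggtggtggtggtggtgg

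The Meioc promoter held 1 E2F sequence, which began at position -228 from the start site. Of 32851 RefSeq promoter windows of 300 bases, 4.6% held that sequence. The Stra8 promoter held 2 retinoid receptor sequences, beginning at positions -194 and -38, and 16.3% of the windows held at least 1. The Rec8 promoter held none of the 4 sequences. The E-box and the T-box sequence, present in 7.15% and 5.84% of the windows, had no match in these promoters. The Meioc promoter had a GC content of 68.3% and 28 CG dinucleotides, the Rec8 promoter 58.3% and 18, and the Stra8 promoter 55.7% and 10, against medians of 52.7% and 7 over all windows. A match is a description of the letters and was not tested as a binding site.

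The knockdown and the cell type were checked first. Pcgf6 averaged 9.33 ± 0.09 in the induced and 11.63 ± 0.10 in the uninduced Pcgf6 hairpins (SD, n = 2 each), a difference of -2.30 (SE 0.10, limma adjusted p = 0.000846), and measured 11.82 with dox and 11.80 without dox in the scrambled line. The lowest of 10 pluripotency markers lay above at least 86.0% of genes on every array. Of 20 feeder fibroblast markers 19 were measured, and their mean level was 10.05 with dox and 10.04 without dox in the hairpin 1 line. It was 10.45 with dox and 9.97 without dox in the hairpin 2 line, and 9.73 with dox and 9.21 without dox in the scrambled line. No feeder marker passed in any comparison. In such bulk samples, a changed share of cells and a changed amount of RNA per cell cannot be told apart.

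**Figure D1:**
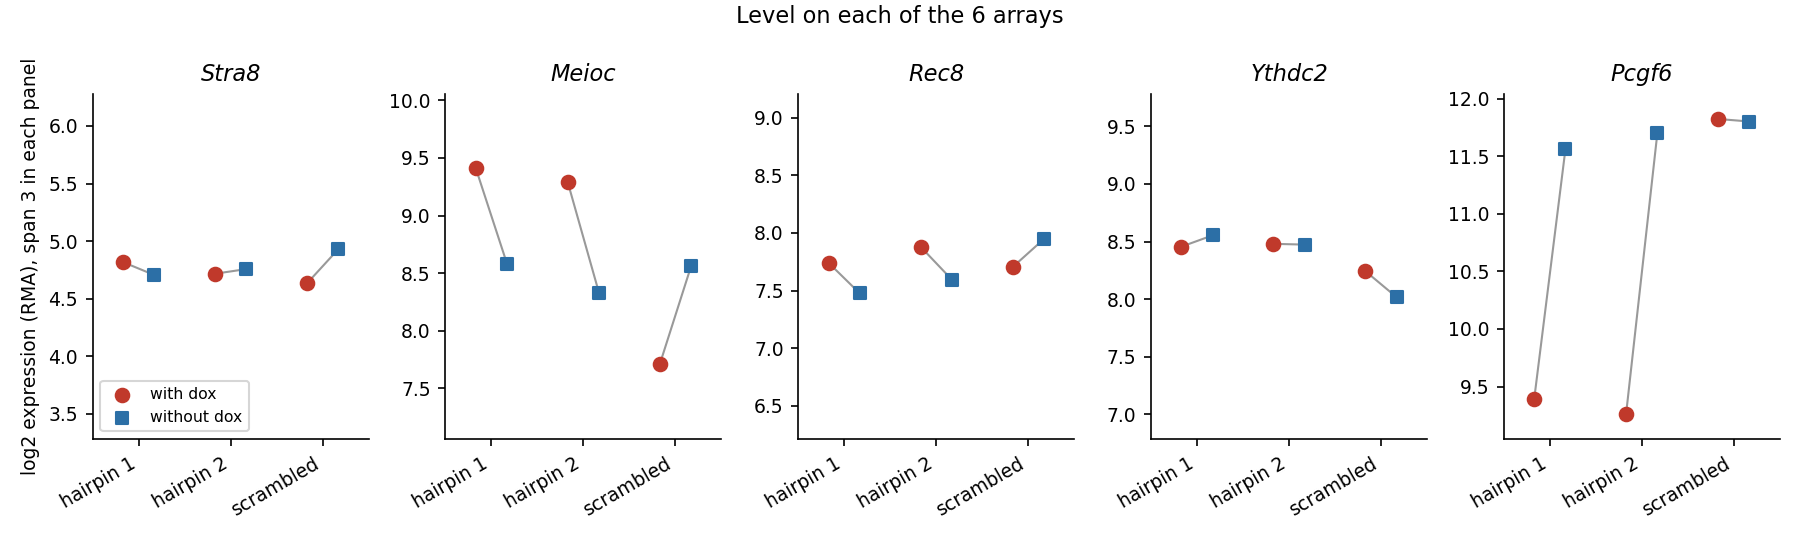
Log2 expression (vertical axes, each spanning 3 log2 units) of the 4 meiotic entry genes and of Pcgf6 on each of the 6 arrays; each point is 1 array, circles are with dox, squares without dox, and grey lines join the arrays of a line. Meioc is higher with dox in both Pcgf6 hairpin lines (9.41 and 9.29, against 8.58 and 8.33 without dox) and lowest on the induced scrambled array (7.71), while Stra8 stays between 4.63 and 4.93.

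The first question was whether the 4 genes changed when the Pcgf6 hairpins were induced. Meioc had the largest difference of the 4, 1.78-fold higher with dox for hairpin 1 and 1.95-fold higher for hairpin 2, Rec8 was slightly higher in both lines, and Stra8 and Ythdc2 lay close to 0. With 1 mean per group, none of the 4 genes passed the threshold of 0.05 on the limma adjusted p, where 0.201% of all genes tested passed. Without adjustment, 8.75% of all genes were under 0.05, and Meioc and Rec8 were among them. The median difference of the 4 genes was 0.16 on the log2 scale, against -0.01 over all genes.

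Stra8, the retinoic acid target that starts the meiotic programme, had low values throughout. It measured 4.82 and 4.72 in the induced Pcgf6 hairpins, against 4.71 and 4.76 in the uninduced ones, and 4.63 with dox against 4.93 without dox in the scrambled line. The groups overlapped, and every value lay below the lower quartile of its array, which ranged from 5.98 to 6.06 over the arrays. The difference over both hairpins was 0.036 (SE 0.088, 95% interval -0.18 to 0.25, limma adjusted p = 0.944). The interval is not adjusted for the number of genes, and the deposited table holds no detection call.

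Meioc encodes the coiled-coil protein that binds YTHDC2 and keeps germ cells in the extended meiotic prophase. It measured 9.41 and 9.29 in the induced Pcgf6 hairpins, against 8.58 and 8.33 in the uninduced ones, and 7.71 with dox against 8.56 without dox in the scrambled line. Both induced hairpin arrays lay above the other 4, and the induced scrambled array lay below the other 5. The share of all genes with this order was not counted. Meioc averaged 9.35 ± 0.09 in the induced and 8.45 ± 0.18 in the uninduced hairpins (SD, n = 2 each), a difference of 0.90 (SE 0.11, 95% interval 0.62 to 1.17, limma adjusted p = 0.066). With the hairpin line as a block, which pairs the arrays of a line, Meioc rose with the same difference (SE 0.09, limma adjusted p = 0.0239). The gene also passed with quantile normalization (adjusted p = 0.0465), median centring (adjusted p = 0.0403) and an intensity trend (adjusted p = 0.0401) by limma, and it missed the threshold whichever of the 4 hairpin arrays was left out (differences of 0.77 to 1.02, adjusted p from 0.157 to 0.365).

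The change of Meioc was 0.83 for hairpin 1, 0.96 for hairpin 2 and -0.85 for scrambled, each from 1 array against 1. At least 1.5-fold higher with dox were 0.627% of genes for hairpin 1, 2.17% for hairpin 2, 0.336% for both and 1.48% for scrambled. At least 1.5-fold lower were 0.241%, 0.446% and 0.211% for hairpin 1, hairpin 2 and scrambled. Meioc was 1 of 4 genes, 0.0201% of all, that were at least 1.5-fold higher with dox for both hairpins and at least 1.5-fold lower with dox for scrambled. The others were Mael, Usp17la and Cpn1, a set defined after the values were seen. Feeder marker means were 10.05 with dox and 10.04 without dox in the hairpin 1 line, and 10.45 with dox and 9.97 without dox in the hairpin 2 line. Their part in the change of Meioc within a line was not tested. In a fit added after seeing the data, with the feeder mean as a covariate, the difference of Meioc over both hairpins was 0.94 (SE 0.17, limma adjusted p = 0.283).

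Ythdc2, the RNA helicase with a YTH domain that works with MEIOC, measured 8.46 and 8.48 in the induced Pcgf6 hairpins, against 8.55 and 8.47 in the uninduced ones. It measured 8.24 with dox and 8.02 without dox in the scrambled line. The hairpin arrays lay between 8.46 and 8.55, and both scrambled arrays lay below all 4 of them, an order not counted over all genes. Over both hairpins the difference was -0.046 (SE 0.085, 95% interval -0.25 to 0.16, limma adjusted p = 0.922).

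Rec8, the meiotic kleisin, measured 7.74 and 7.88 in the induced Pcgf6 hairpins, against 7.47 and 7.59 in the uninduced ones. It measured 7.70 with dox and 7.95 without dox in the scrambled line, which held the highest of the 6 values. The hairpin groups did not overlap, an order that with 2 arrays against 2 has an exact two-sided permutation p of 0.333. Each line had nearly the same change, 0.27 for hairpin 1 and 0.29 for hairpin 2, against -0.24 for scrambled. The difference over both hairpins was 0.28 (SE 0.10, 95% interval 0.04 to 0.51), 1.21-fold, and did not pass over all genes (limma adjusted p = 0.527, and adjusted p = 0.437 with the hairpin line as a block).

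Next, the dox response of the Pcgf6 hairpins was set against that of the scrambled hairpin. It shares the hairpin arrays with the first comparison and rests on 1 scrambled pair. The difference of responses was 1.75 for Meioc (SE 0.20, 95% interval 1.27 to 2.22, limma adjusted p = 0.0765), a value to which the 0.85 lower level with dox in the scrambled line contributed. Meioc passed with the hairpin line as a block (SE 0.16, limma adjusted p = 0.035), with quantile normalization (adjusted p = 0.0463) and with median centring (adjusted p = 0.042). It missed the threshold whichever hairpin array was left out (adjusted p from 0.0934 to 0.23) or with the feeder mean as a covariate (1.69, adjusted p = 0.234). Rec8 differed by 0.52 (SE 0.17), Stra8 by 0.33 (SE 0.15) and Ythdc2 by -0.27 (SE 0.15), each with a limma adjusted p of 0.999. None of the 4 genes passed, where 0.0702% of all genes did, 0.0652% higher and 0.00502% lower.

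**Figure D2:**
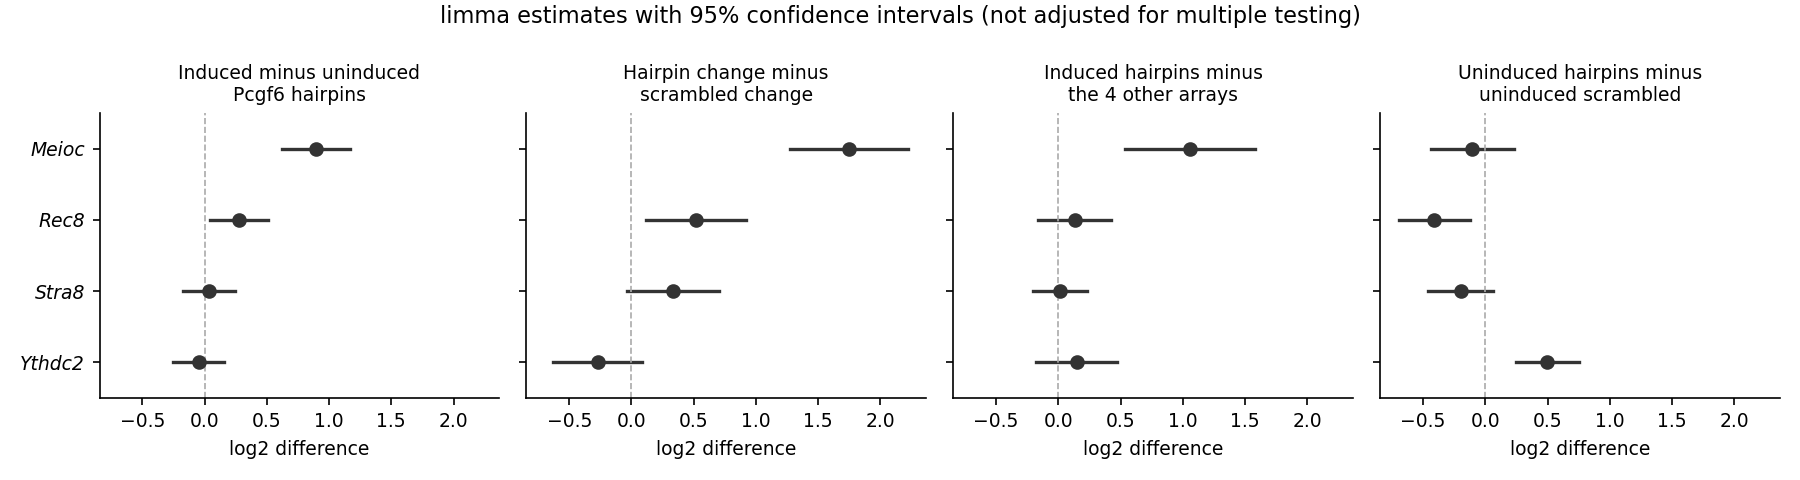
limma estimates (points) of the log2 difference of each gene in the 4 comparisons, with 95% confidence intervals (lines) that are not adjusted for multiple testing; the dashed line marks 0. Meioc lies farthest from 0 in the first 3 panels, at 0.90, 1.75 and 1.06, and Ythdc2 (0.50) and Rec8 (-0.41) lie farthest in the comparison of uninduced lines.

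The induced Pcgf6 hairpins were also set against all 4 remaining arrays, which are partly those used above. Meioc averaged 9.35 ± 0.09 in the induced hairpins (SD, n = 2) and 8.29 ± 0.41 in the other arrays (SD, n = 4). The difference of 1.06 (SE 0.23, limma adjusted p = 0.164) did not pass. With the hairpin line as a block, the estimate is again the change within the hairpin lines (0.90). The scrambled arrays then enter only its spread (SE 0.25, limma adjusted p = 0.465), so that fit does not test the difference from the other arrays. Without the induced scrambled array Meioc was higher by 0.86 (SE 0.10) and passed, with a limma adjusted p of 0.0319. Rec8 (0.13, SE 0.13), Ythdc2 (0.15, SE 0.14) and Stra8 (0.011, SE 0.093) did not pass, where 0.411% of all genes did, 0.351% higher and 0.0602% lower.

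The lines were also compared without dox, to see whether the 4 genes differed before induction (n = 2 Pcgf6 hairpin arrays against 1 scrambled array). Ythdc2 averaged 8.51 ± 0.06 in the uninduced hairpins and measured 8.02 in the uninduced scrambled array, a difference of 0.50 (SE 0.10, 95% interval 0.25 to 0.75, limma adjusted p = 0.306). Rec8 averaged 7.53 ± 0.09 in the uninduced hairpins and measured 7.95 in uninduced scrambled cells, a difference of -0.41 (SE 0.12, limma adjusted p = 0.438). Stra8 differed by -0.20 (SE 0.11) and Meioc by -0.11 (SE 0.14). None of the 4 passed, limma called 0% of all genes, and 8.06% of all genes were under 0.05 without adjustment. Feeder marker means without dox were 10.04 (hairpin 1), 9.97 (hairpin 2) and 9.21 (scrambled), and their part in the values of Ythdc2 and Rec8 was not tested in this comparison.

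The partners of the 4 proteins and the germ-line factors around them included genes that passed. Of 10 listed, 9 were measured, and 4 rose with the Pcgf6 hairpins induced, 0 fell and 5 did not pass. The median difference of the list was 0.23, against -0.01 over all genes, of which 0.191% rose and 0.01% fell. The list was chosen with earlier results of these arrays known, so its count is not independent evidence of a direction. Rbm46, the RNA-binding partner of MEIOC and YTHDC2, measured 8.21 and 8.24 in the induced hairpins, against 6.78 and 6.57 in the uninduced ones, and 6.53 with dox against 6.71 without dox in scrambled cells. Both induced hairpin arrays lay above the other 4, an order not counted over all genes. Rbm46 rose by 1.55 (SE 0.10, limma adjusted p = 0.00339), or 2.93-fold. The call of Rbm46 held with each hairpin array left out in turn, with limma adjusted p from 0.0161 to 0.048.

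Sohlh2, a transcription factor of early germ-cell differentiation, rose by 1.39 (SE 0.11, limma adjusted p = 0.00882). Dazl, an RNA-binding protein that makes germ cells competent for meiosis, rose by 0.94 (SE 0.09, limma adjusted p = 0.0202). Dmrt1, which in the mouse male germ line holds back Stra8 and meiotic entry, rose by 0.86 (SE 0.09, limma adjusted p = 0.0418). Dazl (limma adjusted p from 0.103 to 0.163) and Dmrt1 (0.147 to 0.333) missed the threshold whichever hairpin array was left out, and Sohlh2 did not pass without either uninduced hairpin array (limma adjusted p = 0.157 and 0.089). In the scrambled line Sohlh2 measured -0.27, Dazl -0.13 and Dmrt1 -0.57 with dox.

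In the difference from scrambled, none of the 9 passed, with Rbm46 at 1.73 (SE 0.18, limma adjusted p = 0.0516, and adjusted p = 0.0411 with the hairpin line as a block). Under median centring 3 of the 9 passed there, Rbm46 (1.74), Sohlh2 (1.67) and Dmrt1 (1.44), with limma adjusted p from 0.0283 to 0.0473. Over all 19938 genes 22 passed under that setting. Of the 9, Rbm46 alone passed with an intensity trend or with the mean of all probe sets of a gene, where 18 and 17 of all genes did. Zglp1, a factor of the oogenic programme, measured -0.44 (SE 0.11) over both hairpins, Nanos3 0.23 (SE 0.12), Nanos2, which blocks meiosis in male germ cells, -0.08 (SE 0.09), Sohlh1 -0.0089 (SE 0.095) and the exonuclease gene Xrn1 -0.07 (SE 0.09).

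The retinoic acid list covers the enzymes that make and break down retinoic acid, its carriers and its receptors, which lie upstream of Stra8. Of 16 genes 15 were measured, and 0 passed in any of the 4 comparisons. Their median difference with the Pcgf6 hairpins was 0.05, and the largest differences belonged to the retinoid X receptor gene Rxrg (-0.56, SE 0.14), the synthesising enzyme gene Aldh1a2 (0.36, SE 0.15), the carrier gene Crabp1 (0.31, SE 0.21) and Aldh1a1 (0.23, SE 0.16). The m6A list, which holds the enzymes that write and erase the mark N6-methyladenosine and other YTH-domain readers beside Ythdc2, had 13 of 14 genes measured and 0 that passed. Its differences with the Pcgf6 hairpins ran from -0.09 (Rbm15, SE 0.09) to 0.04 (Alkbh5, SE 0.09), and that of the nuclear reader Ythdc1 was -0.07 (SE 0.09).

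Rec8 works with other cohesin subunits. The germ-line cohesin list had 5 measured genes, 0 of which passed. Rad21l, another meiotic kleisin gene, measured 0.46 (SE 0.13), the subunit gene Stag3 0.19 (SE 0.09), Sgo2a, whose protein protects centromeric cohesin, -0.07 (SE 0.08), Smc1b -0.024 (SE 0.11) and Meikin -0.0017 (SE 0.12). In the scrambled line Smc1b measured -0.71 and Stag3 -0.34 with dox. Of 11 general cohesin genes 0 passed, and the mitotic kleisin gene Rad21 measured 0.05 (SE 0.08). The largest difference there was that of Stag2, at -0.32 (SE 0.09, limma adjusted p = 0.426).

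The list of genes that act in meiotic prophase also had members past the threshold. Of 30 listed 28 were measured, of which 4 rose with the Pcgf6 hairpins induced, 0 fell and 24 did not pass, where 0.191% of all genes rose and 0.01% fell. The median difference was 0.26, against -0.01 over all genes. The genes that rose were Tex11 (2.34, SE 0.09), which acts in recombination, the synaptonemal complex genes Syce1 (1.96, SE 0.12) and Sycp2 (0.85, SE 0.09) and the chromosome axis gene Hormad2 (1.33, SE 0.08), with limma adjusted p from 0.000789 to 0.0367. This list too was chosen with earlier results known. Sycp2 missed the threshold whichever hairpin array was left out (limma adjusted p from 0.156 to 0.199), and Hormad2 did so without either uninduced hairpin array (limma adjusted p = 0.0656 and 0.0691). Sycp1, a synaptonemal complex gene, measured 0.96 and passed only with the hairpin line as a block or under median centring or an intensity trend (limma adjusted p = 0.0707, and adjusted p = 0.0192 with the block). Set against the 4 other arrays, 8 of the 28 rose and 1 fell, where 0.351% of all genes rose and 0.0602% fell. The gene that fell was Hsf2bp (-0.67, SE 0.10). Beside the 4 genes above, those that rose there were Sycp1 (1.10, SE 0.17), Iho1 (1.17, SE 0.13), Tex12 (0.71, SE 0.10) and Tex15 (0.56, SE 0.07), with limma adjusted p from 0.00937 to 0.0448. Tex12 had low values, 3.94 to 4.90 over the arrays, below the lower quartile of every array (5.98 to 6.06). Sycp2 measured 6.08 and 6.05 in the induced hairpins, near that quartile, and 5.16 and 5.28 in the uninduced ones. With the hairpin line as a block against the other arrays, 3 of the 28 rose (Tex11, Syce1 and Hormad2) and 0 fell. Under that fit 36 of 19938 genes rose and 3 fell. Its estimate is the change within the hairpin lines, and the scrambled arrays enter its spread. In the first comparison with that block, Sycp1 and Sycp2 (limma adjusted p = 0.0331) also passed. There 49 of 19938 genes rose and 5 fell. In the difference from scrambled 3 of the 28 were higher, where 0.0652% of all genes were. In the scrambled line 25 of the 28 genes were lower with dox, with a median of -0.22, as were 10656 of all 19938 genes, with a median of -0.01.

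The last groups concern the switch between mitosis and meiosis and the repressor itself. Of 12 cyclin and kinase genes 11 were measured and 0 passed. Ccna2, whose transcript is a known target of MEIOC and YTHDC2 in germ cells, measured 0.00017 (SE 0.088), and the largest differences were those of Ccnd2 (0.33, SE 0.17) and Ccne2 (-0.21, SE 0.13). Of 14 PRC1.6 genes Pcgf6 fell and 13 did not pass. Among them, the DNA-binding subunit genes E2f6 and Mga measured 0.33 (SE 0.09) and -0.29 (SE 0.10), and the deacetylase gene Hdac2 measured 0.29 (SE 0.09).

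**Figure D3:**
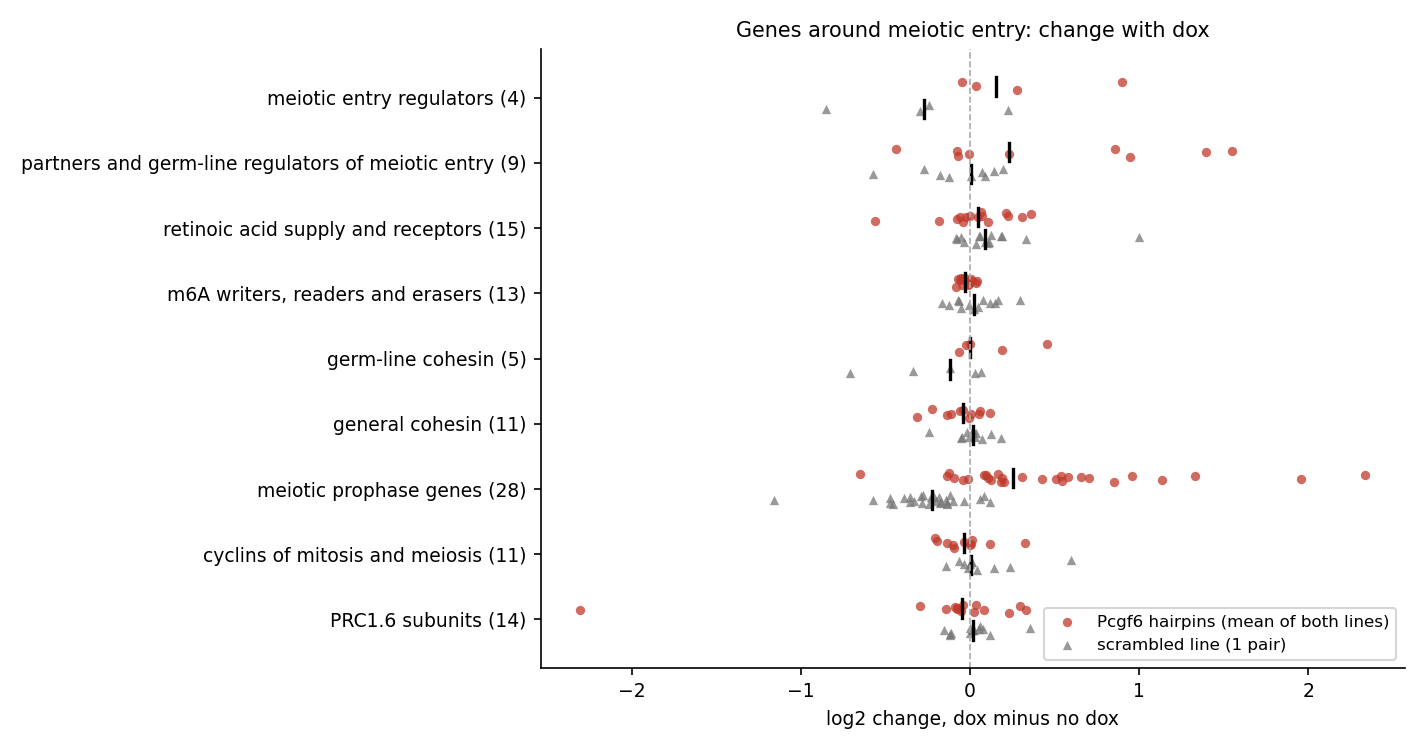
Change with dox (log2, horizontal axis) of the meiotic entry genes and of related gene lists, with the number of measured genes in brackets; each circle is a gene's mean over both Pcgf6 hairpin lines, each triangle its change in the scrambled line, and black ticks are medians. The meiotic prophase genes have a median of 0.26 with the Pcgf6 hairpins and -0.22 in the scrambled line, and the m6A genes lie between -0.09 and 0.04 with the Pcgf6 hairpins.

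The genes most like each of the 4 were sought among 2580 genes whose values spanned at least 0.5 over the 6 arrays, by Pearson correlation over those arrays. The arrays share their lines and their normalization, and with 6 points high values arise easily, so these are descriptions. For Meioc the closest were the zinc finger gene Zc3h8 (r = 0.983), the gene of the transcriptional adaptor Tada1 (r = 0.977) and the glutathione peroxidase gene Gpx6 (r = 0.976). Gpx6 measured 0.80 for hairpin 1, 0.47 for hairpin 2 and -0.58 for scrambled, and thus spanned 1.26, while Zc3h8 and Tada1 spanned 0.53 and 0.51, against 1.70 for Meioc. For Rec8 the closest were Add3 (r = 0.984), Cpsf4l (r = 0.970) and Pecam1 (r = 0.968). For Stra8 they were Odf3l2 (r = 0.949), Ooep (r = 0.937) and Smc1b (r = 0.906). Their changes in the scrambled line were -0.63, -0.56 and -0.71, against -0.30 for Stra8. For Ythdc2 they were Olfml2b (r = 0.984), Medag (r = 0.977) and Fkbp7 (r = 0.975). Their changes in the scrambled line were 0.43, 0.68 and 0.53, against 0.23 for Ythdc2. The feeder marker means in that line were 9.73 with dox and 9.21 without dox, and their part in these changes was not tested.

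**Figure D4:**
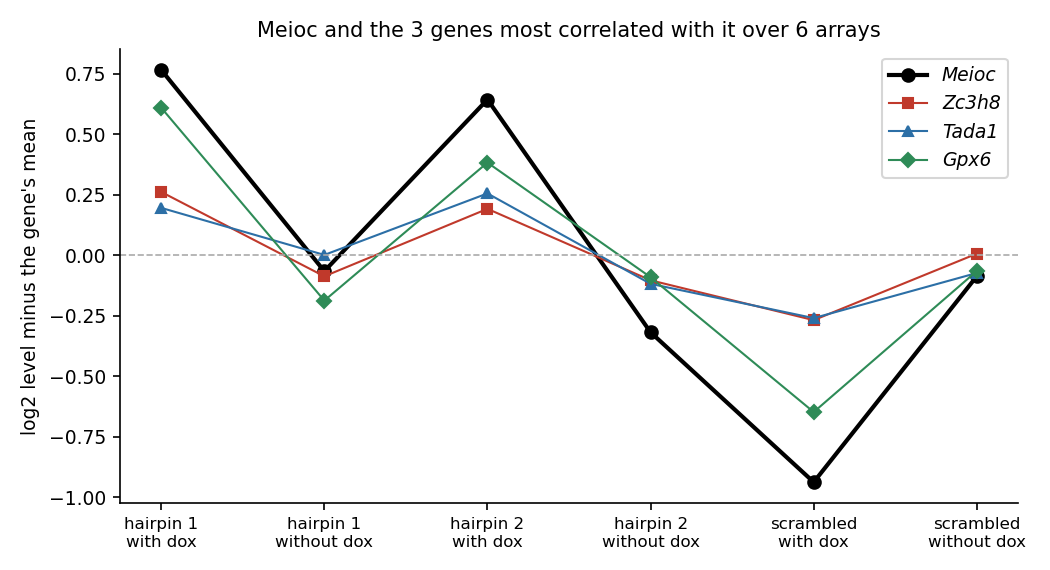
Log2 level minus the gene's own mean over the 6 arrays (vertical axis) of Meioc and of the 3 genes most correlated with it, on each array (horizontal axis). All 4 genes are highest in the induced Pcgf6 hairpin lines and lowest on the induced scrambled array, with the widest span for Meioc (1.70).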

How the data were processed

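The submitters' processing notes name Affymetrix Power Tools and RMA for the log2 values the authors deposited. Versions, options and genome build are not given in the sources used here. RMA removes a change shared by most genes. The number of arrays limits the precision, and no depth applies. Of 35556 probe sets, 21789 had 1 gene symbol, 1621 several and 12146 none. Symbols were updated by Entrez identifier for 21698, and 1 list gene (Six6os1) was matched by synonym. Where a gene had several probe sets (999 genes), the brightest by mean stood for it, which left 19938 genes. No 2 arrays were copies (at most 0.0984% identical values).

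limma 3.58.1 in R 4.3.3 was fitted over all 6 arrays with 1 mean for each of 4 groups (2 residual degrees of freedom), or 2 groups for the induced hairpins against the other arrays. Tests were two-sided with Benjamini-Hochberg adjustment over all genes. The single scrambled arrays add nothing to the estimated spread and are assumed to vary like the hairpin arrays. Whether the arrays stem from separate cultures is not given. In the fit with 4 groups the spread comes from shRNA1 against shRNA2 within each dox state. Different hairpin lines thus serve as the replicates of a condition, and no line was repeated within a dox state. The SDs and p-values carry differences between these lines, which cannot be told apart from the spread between cultures or arrays. An exact permutation test of 2 arrays against 2 cannot go below 0.333. The hairpin number pairs arrays of the same line, and the deviations from group means of arrays that share a number had a correlation of 0.181 over genes. In the comparison with the other arrays, a block on the line leaves the change within the hairpin lines as the estimate. Alternatives were other normalization, filters on dim genes, other handling of probe sets, an intensity trend, the hairpin line as a block and leaving out single arrays; the hairpin arrays alone and a feeder covariate were added after seeing the data.

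The members and gene lists were chosen with earlier results of these data known. The named genes are the 4 members, Pcgf6, list genes that passed in any comparison, up to 4 others per list by mean change, all partners and germ-line cohesin genes, and the 3 most correlated genes per member with a range of at least 0.5. Predicted, RNA-only and receptor-family symbols were left out. Genes on the lists with no probe set to themselves (among them Meiosin, Ythdf2, Syce3, Ankrd31, Ccnb1 and Fbn1) were not analysed. Promoters are from RefSeq (GRCm38.p6), matched by gene identifier, for 3 of the 4 members. That of Ythdc2 was not looked up.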

Additional observations from a re-analysis of the deposited data

Results flagged for a closer look

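Among the genes of the lists, a limma test found unequal dox responses of Pcgf6-hairpin and scrambled cells for Tex11 (2.73, adjusted p = 0.00645), Syce1 (2.31, adjusted p = 0.0383) and Hormad2 (1.55, adjusted p = 0.0416), and for Pcgf6 itself (-2.33, adjusted p = 0.0256). Tex11, Syce1 and Hormad2 were higher with dox in both hairpin lines, by 1.29 to 2.40. The scrambled pair measured -0.39, -0.36 and -0.22, and each of these changes is from 1 array against 1. With each hairpin array left out in turn, Syce1 and Hormad2 did not pass, and Tex11 passed only without either induced hairpin array (adjusted p = 0.0207 and 0.0203). Pcgf6 passed only without induced hairpin 1 (adjusted p = 0.0442).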

How the results depend on the processing

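Meioc kept its direction under every alternative in the first 3 comparisons. Its difference with the Pcgf6 hairpins was 0.87 with quantile normalization, 0.88 with median centring and 0.90 with an intensity trend or a replicate block. These were the 4 of 14 alternatives in which Meioc passed the threshold. It missed with both filters on dim genes, with the mean of all probe sets and with every probe set tested, among others. Its difference from scrambled was 1.77, 1.75 and 1.75 with quantile normalization, median centring and the replicate block. These were the 3 of 13 alternatives in which Meioc passed there. It missed with an intensity trend, the filters on dim genes, the mean of all probe sets and every probe set tested, among others. Against the other arrays Meioc lay between 0.86 and 1.15 with 1 array left out. Of 15 alternatives there, it passed only without the induced scrambled array. Values near 0 changed sign: with 1 hairpin array left out, Stra8 lay between -0.015 and 0.086 with the Pcgf6 hairpins, and Meioc between -0.23 and 0.020 in uninduced lines. Against the other arrays Stra8 measured -0.020 with median centring and -0.040 to 0.069 with 1 array left out. Ythdc2 measured 0.15 there, but -0.13 with the feeder covariate and -0.046 with the replicate block. With that block the estimate is the change within the hairpin lines, as in the first comparison. The cause of the other sign changes was not tested. Stra8 had no value without the dimmest 25% or 50% of genes.

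Changes within a line also depended on the scaling. With quantile normalization and median centring Rec8 measured 0.24 and 0.25 (hairpin 1), 0.23 and 0.26 (hairpin 2) and -0.30 and -0.27 (scrambled), against 0.27, 0.29 and -0.24 as deposited. For hairpin 2, Ythdc2 measured -0.071 and -0.020 against 0.0068 as deposited, and Stra8 0.012 and -0.067 against -0.040. With the Pcgf6 hairpins 40 genes passed by limma, against 62 with an intensity trend, 7 without the dimmest 50%, 22 with the feeder covariate and 14 to 26 with 1 hairpin array left out. In the difference from scrambled 14 passed, against 22 with median centring, 9 and 4 without the dimmest 25% and 50%, 23 with the replicate block, 3 with the feeder covariate and 0 to 4 with 1 hairpin array left out. Testing every probe set gave 0 by limma there (1851 at an unadjusted p under 0.05). Against the other arrays 82 passed, against 38 without the dimmest 50%, 39 with the replicate block, 40 with the feeder covariate and 24 to 81 with 1 array left out. A fit on the 4 hairpin arrays alone also called 40 genes, since single arrays leave no residual.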

Other observations

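Some genes near meiotic entry had their largest change in the scrambled pair, which was not tested by itself; they were chosen after their values were seen. Cyp26a1, the enzyme that breaks down retinoic acid and is itself induced by it, measured 1.00 in the scrambled line, 0.45 for hairpin 2 and -0.02 for hairpin 1. The feeder marker means in the same pairs were 9.73 with dox and 9.21 without dox for scrambled, 10.45 and 9.97 for hairpin 2, and 10.05 and 10.04 for hairpin 1, and their part in the values of Cyp26a1 was not tested. Sycp3, a lateral element gene of the synaptonemal complex, measured -1.16 in the scrambled line, against 0.54 for hairpin 1 and 0.31 for hairpin 2. Smc1b, the meiotic cohesin gene, measured -0.71 in the scrambled line, 0.11 for hairpin 1 and -0.16 for hairpin 2.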
